A study of Homo sapiens with 20 samples.

Results

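The forkhead (FOX) genes encode transcription factors that share the winged-helix DNA-binding domain, and 35 of them were followed here among 19956 protein-coding genes. A contact belonged to a gene where its captured fragment (the bait) or the fragment ligated to it (the other end) lay on the same chromosome and overlapped the gene body widened by 1 kb on GRCh38. The rule that ties contacts to genes uses names and positions, but the list was drawn up with earlier results of these data known. Of the 35 genes, 24 had a contact on the bait side, 28 on the other-end side and 20 on both. FOXB1, FOXD3 and FOXH1 had a contact within their chromosome on neither side. The other forkhead genes of the fixed list, FOXA2 among them, are given only for comparison.

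Forkhead factors read out position and signals in the early embryo. FOXA factors open closed chromatin in endoderm, and FOXH1 carries Nodal signals to DNA through SMAD proteins. FOXC, FOXF and FOXL genes act in mesoderm and its derivatives, and several FOXD, FOXE and FOXI genes act in ectoderm, placodes and neural tissue. FOXO and FOXK genes, and some FOXN and FOXP genes, are expressed in many tissues. Many forkhead genes stand in CpG-rich regions that Polycomb marks in pluripotent cells, and the capture was designed for poised enhancers, which carry such marks before the genes near them are used.

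The assay, Poised Enhancer Capture Hi-C, covered 10 conditions with 20 libraries. HNES1, a human embryonic stem cell line, was kept naive on mouse feeder cells with PD0325901, LIF, Gö6983 and XAV939, and was followed at 6 times between day 1 and day 14 (days 3, 5, 7 and 10 among them) while moving to the primed state without feeders in N2B27 with XAV939. From day 14 cells, definitive endoderm (DE) was made with Activin A, CHIR99021, FGF2, PI-103, BMP4 and LDN193189, and neuroectoderm (NE) with A8301 and LDN193189 for 10 days followed by a sort for CD56+ EpCAM- cells. H9, a conventional primed embryonic stem cell line, was grown in mTeSR-E8, so H9 and day 14 differ in line and in medium as well as in history. Each condition had 2 libraries but 1 deposited score column that pools them, so no spread between replicates and no test could be had. Cell identity could not be checked with marker genes, because contacts and not RNA were measured. A contact was called in a condition at an interaction score of 5 or more. The 95% Wilson intervals below cover counting error only, and the read depth per library was unknown.

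Promoter sequences are shown for 4 of the genes, picked for a contact between members or for a bait over the promoter. All 4 genes had more bait-side than other-end contacts, so the promoters do not show which end a gene was seen from. The sequences are from RefSeq on GRCh38.p14, from 250 bases before to 50 after the start, plus strand, written 5′ to 3′ with CG pairs in capitals. FOXF2 (chr6:1389326-1389625) and FOXC1 (chr6:1609665-1609964) were the only members joined by a contact under the rule, while a bait overlapped the promoters of FOXQ1 (chr6:1311848-1312147) and FOXB2 (chr9:77019405-77019704).
FOXF2 promoter: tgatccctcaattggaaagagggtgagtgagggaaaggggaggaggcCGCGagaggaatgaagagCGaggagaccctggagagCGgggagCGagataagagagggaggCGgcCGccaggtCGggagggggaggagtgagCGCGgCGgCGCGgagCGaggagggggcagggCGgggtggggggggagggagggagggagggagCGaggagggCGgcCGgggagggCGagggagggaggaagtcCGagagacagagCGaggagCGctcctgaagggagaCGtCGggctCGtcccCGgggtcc
FOXC1 promoter: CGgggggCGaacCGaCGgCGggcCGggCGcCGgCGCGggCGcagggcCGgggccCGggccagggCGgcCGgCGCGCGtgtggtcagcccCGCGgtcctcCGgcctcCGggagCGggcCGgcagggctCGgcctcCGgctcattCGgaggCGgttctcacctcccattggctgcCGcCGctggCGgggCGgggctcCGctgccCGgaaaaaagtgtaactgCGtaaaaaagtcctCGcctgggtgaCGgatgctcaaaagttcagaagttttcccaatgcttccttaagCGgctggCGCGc
FOXQ1 promoter: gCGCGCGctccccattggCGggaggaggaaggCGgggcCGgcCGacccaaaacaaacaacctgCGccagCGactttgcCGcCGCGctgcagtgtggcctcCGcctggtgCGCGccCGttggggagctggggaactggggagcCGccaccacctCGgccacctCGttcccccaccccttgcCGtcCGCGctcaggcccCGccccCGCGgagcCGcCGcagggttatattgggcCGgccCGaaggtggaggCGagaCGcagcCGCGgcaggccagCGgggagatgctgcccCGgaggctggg
FOXB2 promoter: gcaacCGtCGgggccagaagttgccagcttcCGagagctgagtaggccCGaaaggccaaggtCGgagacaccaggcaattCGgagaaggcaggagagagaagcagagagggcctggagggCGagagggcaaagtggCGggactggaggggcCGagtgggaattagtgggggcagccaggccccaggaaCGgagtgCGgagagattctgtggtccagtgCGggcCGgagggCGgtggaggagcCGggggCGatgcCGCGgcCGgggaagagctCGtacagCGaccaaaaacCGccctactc
The CG count was 26 for FOXF2, 40 for FOXC1, 35 for FOXQ1 and 22 for FOXB2. Used were 38 promoters of 27 members, counting every listed start, and 22116 promoters of all protein-coding genes. The chromosome of FOXH1 was left out for the members but not for all genes. The median was 30.5 CG pairs for the members and 21 for all. The DpnII site GATC occurred in 36.8% of the members' promoters and in 40.0% of all. A forkhead-binding sequence, TGTTTAC on either strand, occurred in 1 of the 38, an inner start of FOXP1, and in 2.85% of all, so the members' share of 2.63% lay near that of all promoters.

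Baits at the forkhead genes had 66 called contacts in naive cells, 61 on day 1, 115 on day 3, 106 on day 5, 70 on day 7, 86 on day 10 and 109 on day 14. H9 had 131, DE had 157 and NE had 198. Naive and day 1 cells had the fewest, days 3, 5 and 14 stood above the days between them, and both differentiated states stood highest. Seen as other ends, the genes had 49, 41, 51, 53, 34, 50, 59, 83, 76 and 95 calls in the same order. All contacts within chromosomes were also called more often on days 3, 5 and 14 than on the other days, and most often in the differentiated states. This bears on every count here. From naive to day 14 they were called at 10.0%, 10.1%, 12.4%, 11.7%, 10.2%, 10.3% and 11.2% of listed contacts. The share was 13.0% in H9 cells, 16.2% in DE and 17.9% in NE. The members' bait-side contacts were called at 7.86% (95% interval 6.22 to 9.87) in naive cells and 7.26% on day 1. They were called at 13.7%, 12.6%, 8.33%, 10.2% and 13.0% on days 3, 5, 7, 10 and 14. The members' share was 15.6% in H9 cells, 18.7% in DE and 23.6% (20.8 to 26.6) in NE.

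**Figure D1:**
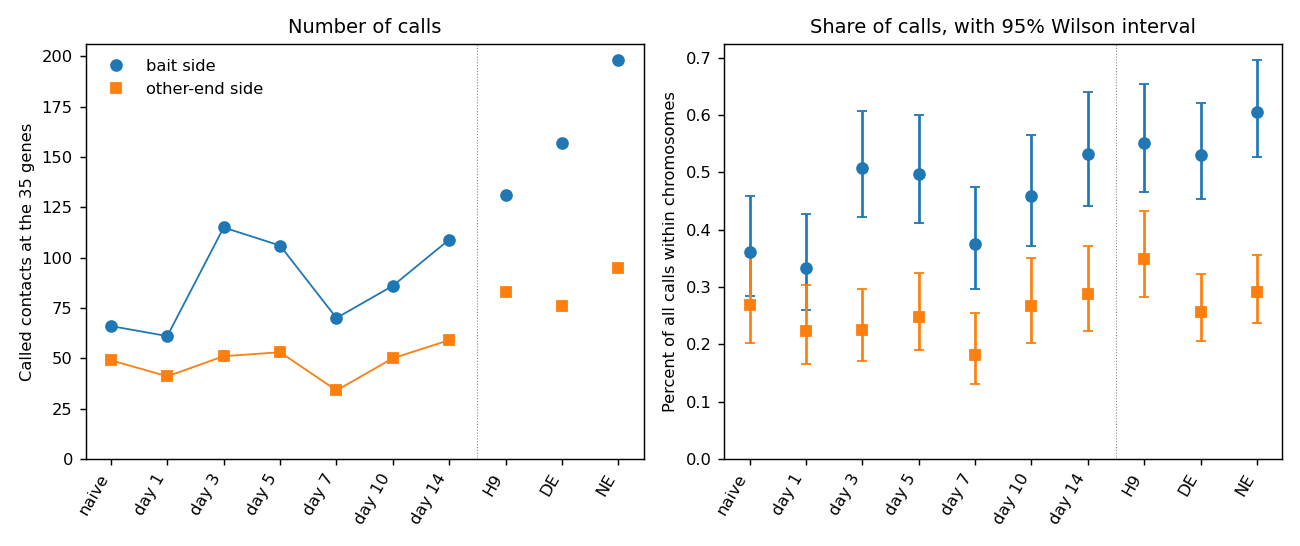
Called contacts (left, number) and their share of all calls within chromosomes (right, percent with 95% Wilson interval) for the 35 forkhead genes in 10 conditions, by the side the gene was on; lines join the days of the transition. Bait-side calls were lowest on day 1 at 61 and highest in NE at 198.

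From naive to day 14 cells, bait-side calls were 1.65 times as many (95% interval 1.22 to 2.24), beside 1.12 times over all contacts within chromosomes. Much of the rise came from FOXP4, with 15 calls in naive cells and 38 on day 14, and FOXL1, with 2 and 13. The median change per member with a bait-side contact was 0, and without FOXP4 the ratio was 1.39. Of the called contacts 105 were called on day 14 alone of the pair, 62 in naive cells alone and 4 in both. The 4 are 2.34% of the contacts called in either, beside 3.31% over all contacts within chromosomes. For day 14 paired with H9, DE and NE the members had 14, 12 and 18 contacts called in both. The shares were 6.19%, 4.72% and 6.23%, beside 4.15%, 4.29% and 4.52%. The counts are small, and no difference from all contacts is read from any of these shares. By gene, 6 of 24 had at least 3 more calls on day 14, beside 10.5% of all genes with a bait-side contact, and 1 had at least 3 fewer, beside 7.12%. These percentages, like the bait-side ones for H9, DE and NE below, are no matched standard. The members had a median of 26 listed contacts per gene on the bait side and all such genes 12. At the other end the ratio was 1.2 (0.826 to 1.75), with 3 of 28 genes higher beside 4.10% and 2 lower beside 2.49%. Here members and all genes both had a median of 3 contacts.

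H9 had 1.2 times the bait-side calls of day 14 (0.933 to 1.55), beside 1.16 over all contacts, and without the added 1 kb the ratio turned to 0.988. Of 24 genes 6 were higher, beside 12.0%, and 5 lower, beside 7.60%. The other-end ratio was 1.41 (1.01 to 1.96), with 2 of 28 genes higher beside 4.55% and 2 lower beside 2.66%.

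DE had 1.44 times the bait-side calls of day 14 (1.13 to 1.84), equal to the 1.44 over all contacts. In DE 11 of 24 genes were higher, beside 18.0%, and 2 lower, beside 5.33%, again with no matched standard. At the other end the ratio was 1.29 (0.918 to 1.81), with 3 of 28 genes higher beside 6.99% and 0 lower beside 1.86%. NE had 1.82 times the bait-side calls (1.44 to 2.29), beside 1.59 over all contacts, with 12 of 24 genes higher beside 21.7% and 1 lower beside 4.30%. Its other-end ratio was 1.61 (1.17 to 2.23), with 3 of 28 genes higher beside 8.34% and 1 lower beside 1.57%. With calls limited to an equal number of the highest scores per condition, the bait-side ratios came to 1.03 for DE and 1.31 for NE, and the other-end ratios turned to 0.808 and 0.942. DE and NE share the day 14 column as their control.

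**Figure D2:**
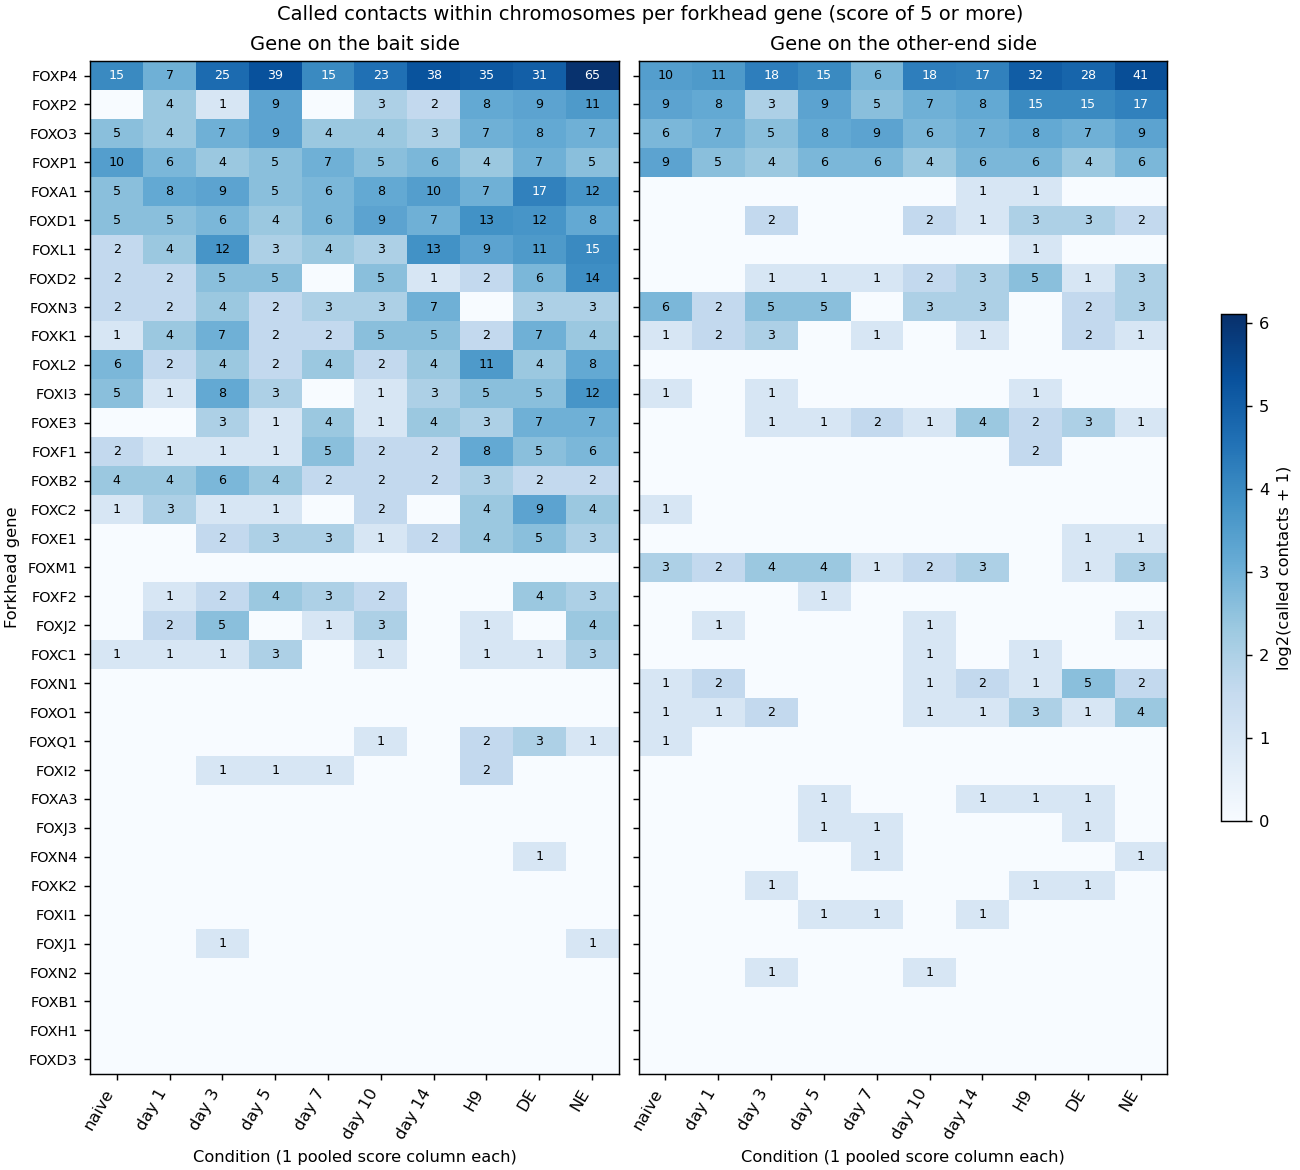
Called contacts per forkhead gene (rows, ordered by their sum) and condition (columns) with the gene on the bait side (left) or at the other end (right); numbers are calls, blank cells are 0 and the colour is log2 of calls plus 1. FOXP4 leads both panels, with 65 bait-side calls in NE.

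Among the endoderm and pluripotency genes, FOXA1 was the one with bait-side contacts. FOXA1 is a pioneer factor of endoderm, and its baits had 5, 8, 9, 5, 6, 8, 10, 7, 17 and 12 calls from naive to NE in the order above. DE was the highest of the 10 conditions and NE the next. Of its 53 contacts 47 ran to lower coordinates, and in DE and NE every called contact did. The contact called most often, from chr14:37587512-37589094 into MIPOL1 336 kb away, scored 4.9, 3.47, 4.6, 6.24, 5.4, 6.41, 2.26, 6.93, 8.16 and 12.3. It was called in 6 conditions, but not on day 14, and scored highest in NE. A neighbouring MIPOL1 fragment at 346 kb scored 15.0 in NE. As an other end, FOXA1 was met by baits 2.31 and 5.73 kb from NKX2-1, a homeobox gene of foregut and forebrain, the nearer at a score of 5.41 on day 14 and the farther at 5.41 in H9. FOXA3, another endoderm factor, had 4 other-end contacts, with single calls on days 5 and 14, in H9 and in DE. FOXA2, outside the member list, had 3, 2, 8, 10, 5, 11, 6, 6, 8 and 10 bait-side calls, with no such peak in DE.

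FOXH1 itself had no contact within its chromosome. Between chromosomes, which the rule leaves out, its baits had 10 calls in DE, 2 in NE and 0 elsewhere. Over all contacts between chromosomes, DE had 5.97 and NE 4.94 times the calls of day 14, so a rise in DE was not particular to FOXH1. Its Nodal partners were counted from a fixed list. Of 16 Nodal pathway genes, 6 had bait-side contacts, with 18 calls on day 14, 36 in DE and 41 in NE. Of the 6, 2 were higher and 1 lower in DE by at least 3 calls (18.0% and 5.33% of all genes), and 4 were higher and 0 lower in NE (21.7% and 4.30%). EOMES, a T-box factor of endoderm, had 6 calls on day 14, 22 in DE and 14 in NE.

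FOXD2 and FOXE3 lie 20.0 kb apart on chromosome 1 and had contacts with the same distal stretch. FOXD2, expressed in mesenchyme and kidney, had 2, 2, 5, 5, 0, 5, 1, 2, 6 and 14 bait-side calls, and FOXE3, a lens factor, had 0, 0, 3, 1, 4, 1, 4, 3, 7 and 7. Both were highest in NE, FOXE3 equally so in DE. Of the 25 contacts of FOXD2, 24 ran to higher coordinates. The FOXD2 bait chr1:47436013-47437131 met chr1:47711057-47717033, 277 kb away, at scores of 3.48, 3.5, 5.2, 9.58, 2.61, 7.09, 3.98, 8.3, 16.6 and 8.76. This was called in 6 conditions and was highest in DE. The adjoining fragment chr1:47710785-47711056 was itself a bait and met both genes from the other direction. Its contact with FOXD2 scored 0, 0, 1.21, 0.887, 12.9, 4.01, 2.25, 7.35, 0.957 and 12.4, and its contact with FOXE3 scored 0, 4.66, 4.32, 4.63, 5.44, 1.19, 6.44, 5.88, 0 and 5.24. Both were called on day 7, in H9 and in NE, and in DE neither was, although the FOXD2 bait scored highest there with the fragment beside it. FOXD2 was also met by baits at TAL1, a blood and endothelial factor, one of which scored 8.07 on day 14 and 8.6 in H9.

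Other ectoderm and neural genes differed in the condition that was highest. FOXD1, a factor of kidney stroma and forebrain, had 5, 5, 6, 4, 6, 9, 7, 13, 12 and 8 bait-side calls. H9 and DE were highest. Its leading contact, 153 kb to lower coordinates, scored 1.89, 1.13, 3.83, 2.07, 1.8, 6.71, 8.12, 6.44, 5.26 and 6.09. That contact was called on days 10 and 14 and in the 3 conditions outside the time course, and at no earlier time. A second FOXD1 bait, chr5:73449227-73449427, met the same far fragment at 6.5 on day 3 and 1.52 on day 10, so the timing differed between baits. FOXI3, a placode and ear factor, had 5, 1, 8, 3, 0, 1, 3, 5, 5 and 12 calls. Its bait met THNSL2 at 265 kb with scores of 12.6, 2.4, 8.96, 5.46, 3.05, 4.99, 13.8, 7.99, 5.16 and 14.3, called in 7 conditions that included naive cells and NE.

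FOXP2, a factor of neural circuits, had 0, 4, 1, 9, 0, 3, 2, 8, 9 and 11 bait-side calls and 9, 8, 3, 9, 5, 7, 8, 15, 15 and 17 at the other end. H9, DE and NE were the highest on the other-end side, and day 5 matched DE on the bait side. Of its contacts 35 lay within the gene and count on both sides, with 2 calls on day 14 and 11 in NE. Other-end contacts with baits at lower coordinates outside the widened gene had 6 calls in each. Those baits, chr7:114081567-114082940 and chr7:114083104-114083886, lay just below the widened gene. The second adjoined the bait chr7:114083887-114085601, which counted as within the gene. The split thus rests on the 1 kb added, and no location of the difference between day 14 and NE is read from it. FOXN1, a thymus and skin factor, was seen as an other end alone, with 1, 2, 0, 0, 0, 1, 2, 1, 5 and 2 calls. Its contact with chr17:28416574-28417151, 119 kb away, was called at 5.36 in naive cells, 8.41 on day 14 and 11.4 in DE. FOXB2, a neural factor, had 4, 4, 6, 4, 2, 2, 2, 3, 2 and 2 calls and was thus higher through day 5 than later. FOXE1, a thyroid factor, had 0 calls in naive and day 1 cells and 1 to 5 in every later condition. FOXI2 had at most 2 calls in a condition, and FOXI1, FOXJ1 and FOXN4 at most 1 on either side.

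The FOXF1, FOXC2 and FOXL1 cluster on chromosome 16 was divided by direction. FOXF1, a factor of lung and gut mesenchyme, sent 27 of 30 contacts to lower coordinates. FOXC2, a factor of lymphatic vessels, sent 24 of 24 and FOXL1, a gut mesenchyme factor, 66 of 67 to higher coordinates. The gap between FOXF1 and FOXC2 was 51.4 kb, that between FOXC2 and FOXL1 8.82 kb, and no listed contact joined any pair of the 3 genes. The shortest listed bait-side contact was 107 kb for FOXF1, 141 kb for FOXC2 and 127 kb for FOXL1. These baits thus had no listed contact as short as the gaps, and the lack of a joining contact cannot be read as a separation of the genes. FOXL1 had 2, 4, 12, 3, 4, 3, 13, 9, 11 and 15 bait-side calls, with days 3 and 14 and NE the highest. FOXC2 had 1, 3, 1, 1, 0, 2, 0, 4, 9 and 4, with DE the highest. FOXF1 had 2, 1, 1, 1, 5, 2, 2, 8, 5 and 6, with H9 the highest. Its leading contact at 446 kb scored 12.4 in naive cells, 7.09 in H9 and 5.83 in DE and was below 5 elsewhere. FOXL1 met a fragment 241 kb away in 4 conditions, at 5.33 on day 5, 8.65 on day 14, 6.6 in H9 and 8.29 in DE.

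On chromosome 6 the FOXQ1, FOXF2 and FOXC1 cluster showed a like split. FOXQ1, an epithelial factor, sent 6 of 6 contacts and FOXF2, a gut and palate mesenchyme factor, 14 of 17 to lower coordinates, and FOXC1, an eye and crest factor, sent 11 of 11 to higher ones. FOXF2 and FOXC1, 214 kb apart, gave the only contact between members within the added 1 kb: the FOXF2 bait chr6:1390322-1391284 met the fragment that holds the FOXC1 promoter printed above. That contact scored 5.39 on day 10, 1.43 on day 1, 1.36 in H9 and 0 in the other 7 conditions. Another FOXF2 bait met a fragment just outside the widened FOXC1 gene at 5.32, again on day 10. A further bait, 3.63 kb from FOXF2, met FOXC1 at 5.77 in H9. Other near misses were a bait 1.44 kb from FOXQ1 that met FOXF2 at 5.17 on day 5 and a bait 5.66 kb from FOXD2 that met FOXE3 at 5.26 in DE. FOXF2 had 0, 1, 2, 4, 3, 2, 0, 0, 4 and 3 bait-side calls, FOXC1 1, 1, 1, 3, 0, 1, 0, 1, 1 and 3, and FOXQ1 0 to 3. FOXL2, an ovary and eyelid factor on chromosome 3, had 6, 2, 4, 2, 4, 2, 4, 11, 4 and 8 calls, highest in H9, and sent 19 of 42 contacts to lower and 23 to higher coordinates.

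**Figure D3:**
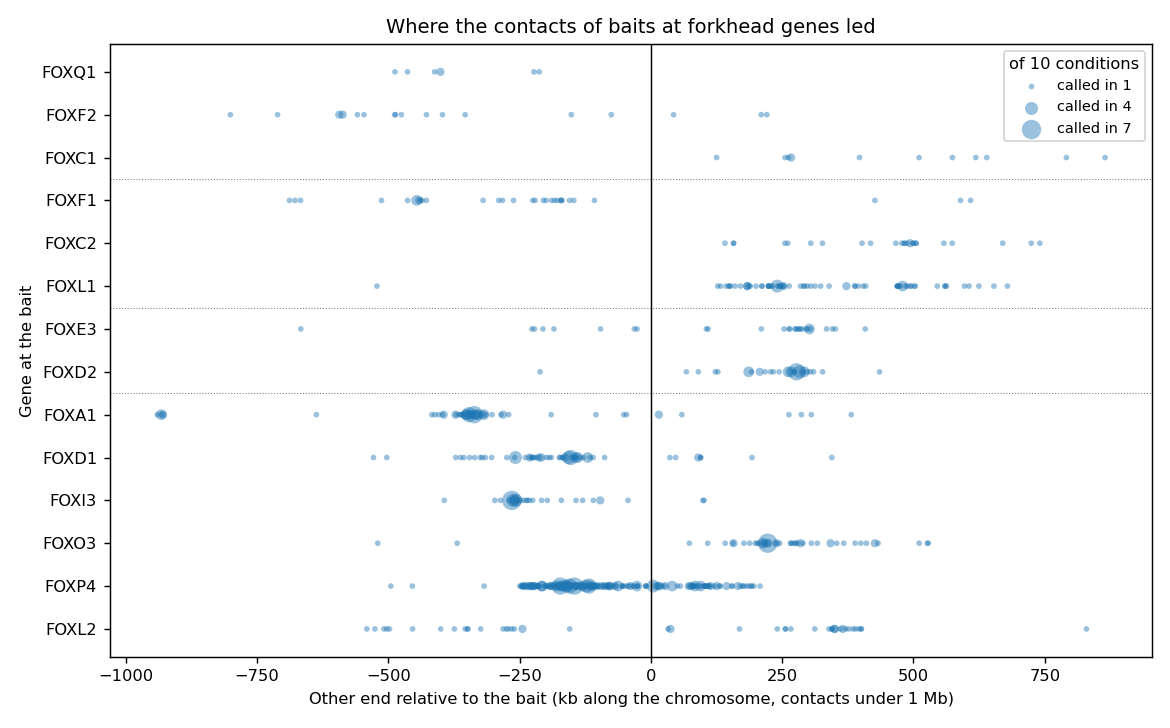
Position of the other end relative to the bait (kb along the chromosome, contacts under 1 Mb) for baits at 14 forkhead genes; each point is a contact and its size is the number of conditions that called it. In the cluster of FOXF1, FOXC2 and FOXL1, FOXF1 pointed to lower coordinates in 27 of 30 contacts and FOXL1 to higher ones in 66 of 67.

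One-sidedness was compared with all genes that had at least 10 bait-side contacts outside the gene. The median share on the larger side was 88.7% for 19 members and 77.3% for 3027 genes. At least 85% lay on one side in 12 of the 19, beside 33.8% of all genes, and at least 90% in 9 of the 19, beside 25.4%. Both limits were chosen after the shares had been seen, and the count depends on which is used. Neighbouring members share surroundings and are not independent, so no test is given.

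FOXP4, a broadly expressed factor of lung, gut and brain, had the most calls, with 12 of the 82 baits at members and 26.7% of their bait-side calls. Counts are not compared between genes beyond this, since genes differ in length and number of baits. It had 15, 7, 25, 39, 15, 23, 38, 35, 31 and 65 bait-side calls and 10, 11, 18, 15, 6, 18, 17, 32, 28 and 41 at the other end. NE was highest on both sides, and on the bait side DE lay 7 calls below day 14 and NE 27 above it. One bait, chr6:41592143-41593603, had 2, 1, 7, 21, 5, 0, 18, 12, 11 and 14 of these calls. The calls of that bait went from 21 on day 5 to 0 on day 10 and 18 on day 14.

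Most far ends of FOXP4 lay at lower coordinates, in 139 of 200 bait-side and 111 of 132 other-end contacts. The leading bait-side contact, at 172 kb, scored 3.13, 3.84, 6.73, 11.5, 7.34, 3.19, 2.51, 10.4, 5.9 and 5.72 and was called in 6 conditions. From the distal bait chr6:41371036-41371173, 225 kb away, the score with FOXP4 was 7.66, 6.18, 1.07, 6.07, 0, 0, 1.05, 17.1, 5.02 and 16.5. H9 and NE stood far above the rest, and day 14, from which NE was made, was near 0. Without FOXP4 the members had 51 bait-side calls in naive cells, 71 on day 14, 96 in H9 cells, 126 in DE and 133 in NE. The ratio to day 14 was then 1.77 for DE and 1.87 for NE, and day 14 stood at 1.39 times naive.

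**Figure D4:**
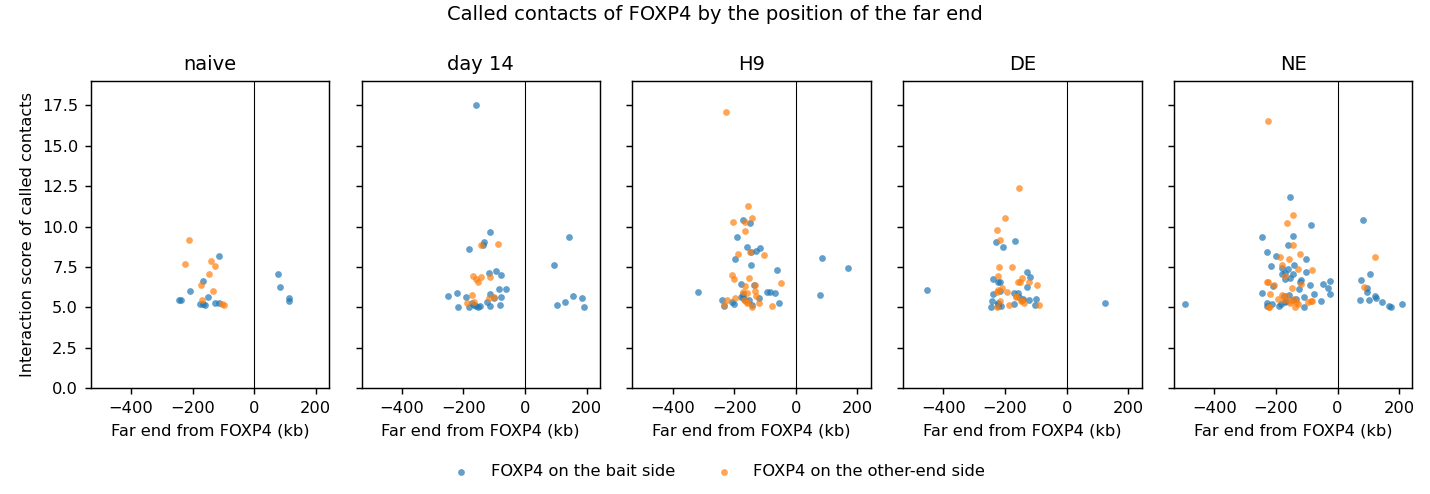
Interaction score of each called FOXP4 contact against the position of its far end (kb from FOXP4, negative to lower coordinates) in 5 conditions, with FOXP4 on the bait side (blue) or at the other end (orange) and contacts within the gene left out. The highest scores outside day 14 are at lower coordinates, with 17.1 in H9 and 16.5 in NE at 225 kb.

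FOXP1, FOXN3 and FOXM1 had their highest counts within the time course and not in H9, DE or NE. FOXP1, a factor of B cells and heart, had 10, 6, 4, 5, 7, 5, 6, 4, 7 and 5 bait-side calls and 9, 5, 4, 6, 6, 4, 6, 6, 4 and 6 at the other end, highest in naive cells on both sides. Of its contacts 43 lay within its own long gene body, and these count on both sides. They gave 9 of the naive calls on each side, so the sides are not separate observations. FOXN3, a repressor of cell cycle genes, had 2, 2, 4, 2, 3, 3, 7, 0, 3 and 3 bait-side calls and 6, 2, 5, 5, 0, 3, 3, 0, 2 and 3 at the other end. H9 had 0 on both sides. FOXM1, a driver of mitotic genes, was seen as an other end alone, with 3, 2, 4, 4, 1, 2, 3, 0, 1 and 3 calls, and again 0 in H9. Its leading contact, with a bait at TEAD4 87.5 kb away, scored 10.3, 8.38, 1.05, 6.48, 2.6, 4.3, 9.22, 4.18, 5.36 and 3.63.

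FOXO3, a stress and longevity factor, had 5, 4, 7, 9, 4, 4, 3, 7, 8 and 7 bait-side calls and 6, 7, 5, 8, 9, 6, 7, 8, 7 and 9 at the other end. The bait-side count was lowest on day 14 and highest on day 5. A contact at 222 kb was called in 7 conditions on the bait side, and one at 271 kb in 7 on the other-end side. The latter scored 5.5, 8.57, 3.67, 0.881, 7.19, 5.5, 5.14, 11.1, 9.9 and 2.54. FOXO1, an insulin-responsive factor, was seen as an other end alone, with 1, 1, 2, 0, 0, 1, 1, 3, 1 and 4 calls, and 13 of 13 contacts came from lower coordinates. FOXK1 had 1, 4, 7, 2, 2, 5, 5, 2, 7 and 4 bait-side calls and a contact within the gene at 50.4 kb called in 4 conditions. FOXJ2 had at most 5 calls in a condition, and FOXJ3, FOXK2 and FOXN2 at most 1, on the other-end side alone.

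**Figure D5:**
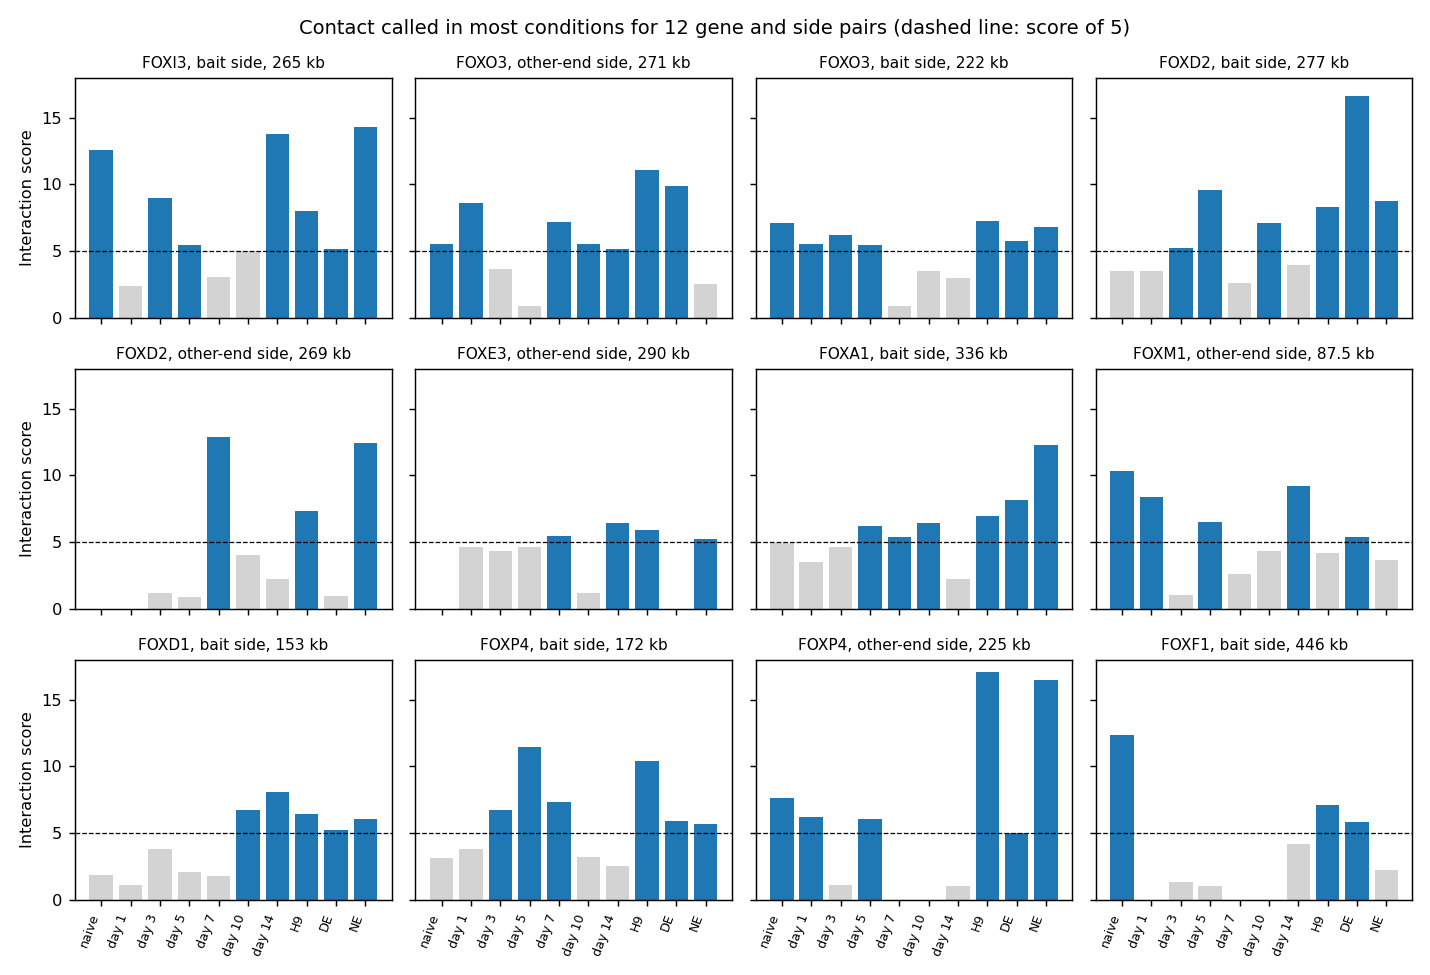
Interaction score in each condition of the contact called in most conditions for 12 pairs of gene and side, with its distance; blue bars reach the dashed line at 5 and grey bars do not. The FOXD1 contact shown, from 1 of its baits, was called on days 10 and 14 and in H9, DE and NE, and the FOXP4 other-end contact reached 17.1 in H9 and 16.5 in NE.

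Single contacts were seldom called more than once. On the bait side 81.0% of the members' contacts were called in 1 condition and 23 of 840 in at least 4, and at the other end 80.7% and 15 of 445, beside 85.8% called in 1 condition over all contacts. No member contact was called in more than 7 of the 10 conditions. Contacts between baits made up 4.76% on the bait side and 9.66% at the other end, beside 1.31% of all contacts within chromosomes. The median distance was 229 kb and 208 kb, beside 228 kb. The other fixed lists stood beside the members. Of 10 other forkhead genes 7 had bait-side contacts, with 10 calls on day 14, 9 in DE and 19 in NE. Of 19 SOX genes 10 had them, with 30, 40 and 45 calls. Over all contacts within chromosomes DE had 1.44 and NE 1.59 times the calls of day 14.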

How the data were processed

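The assay was Poised Enhancer Capture Hi-C in 20 libraries of 10 conditions, and the authors deposited 1 matrix with a CHiCAGO interaction score per contact and condition, per the labels. Both libraries of a condition were pooled in its column, and 0 score columns lacked a sample. The build was GRCh38, per the submitters' processing notes. The aligner, caller version and filters are not given in the sources used here. The lowest maximum score of a listed contact was 5.0, so contacts below 5 in every condition were not analysed here.

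Of 766138 contacts, the 182303 within chromosomes were used. Gene bodies of 19956 protein-coding genes came from RefSeq (94 readthrough genes left out), widened by 1 kb on each side. A contact within a gene counts on both sides. Calls at a score of 5 or more were counted with Wilson 95% intervals, and a gene was counted as higher or lower at 3 calls or more. With 1 pooled column per condition no test was run and no p-value is given. Counting was tested on simulated data.

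The members and lists were chosen with earlier results of these data known. Named in full were the 3 members with the largest change per side and comparison (ties included), members in contact with each other, and the contact of each called in most conditions. The limits of 85% and 90% for contacts on one side, both shown, and the count of 3 calls were likewise chosen with values in view, as were some single contacts named beside the leading one. Alternatives were score thresholds of 3 and 10, equal numbers of calls, gene bodies not widened or widened by 10 kb, no contacts between baits, each pair once, other ends within 10 kb merged, and FOXP4 left out. Python 3.11.15, pandas 2.3.3, numpy 2.4.6, scipy 1.17.1 and matplotlib 3.10.9 were used.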

Additional observations from a re-analysis of the deposited data

Results flagged for a closer look

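FOXP4 on the bait side differed in direction between the differentiated states: DE minus day 14 was -7 calls and NE minus day 14 was 27. The difference was not tested, and both share the day 14 column.

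Contacts between chromosomes lay outside the counts above. Baits at members had 616 of them called in DE and 549 in NE, beside 123 on day 14 and 88 in naive cells. This was 5.01 and 4.46 times day 14, beside 5.97 and 4.94 times over all contacts between chromosomes, so the members' ratios lay below those of the whole columns. With the member at the other end there were 204 in DE and 157 in NE, beside 41 on day 14. FOXP4 baits had 109 in DE and 18 on day 14. Their part in the results was not tested.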

How the results depend on the processing

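Across 8 ratios and 9 alternatives, 61 of 69 values kept their direction and lay within the counting interval of the reported ratio. The alternatives mostly recount the same contacts, so this is a weak check. Some kept values rest on few calls. At a threshold of 10 the bait-side ratio of day 14 to naive was 1.5 on 2 and 3 calls. That of DE to day 14 was 1.33 on 3 and 4 calls. With equal numbers of top-scoring contacts (18272 per condition), the bait-side ratio to day 14 moved to 1.03 for DE and 1.31 for NE, and the other-end ratio reversed to 0.808 for DE and 0.942 for NE. Calling fewer contacts in the conditions with more calls is what this setting does. Without widening, the bait-side ratio of H9 to day 14 reversed to 0.988. At a threshold of 10, the bait-side ratio of NE to day 14 moved to 2.67 on 3 and 8 calls, that of H9 moved to 1.0 on 3 and 3 calls and so had no direction, and the other-end ratio of day 14 to naive reversed to 0.0 on 1 and 0 calls. The cause of the last 4 was not tested. The other-end ratios to day 14 had no value at 10, since day 14 had 0 calls. No paired analysis was possible because each column pools both libraries, and for that reason no library could be left out. Scores near 5 on a single column, with depth unknown, limit every contact named.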
